A study of Homo sapiens with 6 samples.

Results

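The SR proteins and the heterogeneous nuclear ribonucleoproteins (hnRNPs) were examined by RNA-seq in SW480 cells, a human colon adenocarcinoma line, with and without knockdown of ALDH1B1, a mitochondrial aldehyde dehydrogenase. Members were all symbols of the form SRSF plus a number or HNRNP plus letters and numbers, which took 84 of the 22258 symbols in the expression table. They comprised 11 SR genes, 22 hnRNP genes and 51 hnRNP pseudogenes. The study held 3 samples of ALDH1B1 knockdown SW480 cells and 3 of control SW480 cells, which the labels call wild type and, in their names, SCR. Neither group received a drug or other treatment, both carried replicate numbers 4 to 6, and all were strand-specific libraries of total RNA. The labels do not state how the knockdown was made, whether it rests on 1 clone, or whether replicates were separate cultures, so p-values speak of sample-to-sample spread that may be technical alone.

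SR proteins carry RNA recognition motifs and a tail rich in arginine and serine. They bind exonic enhancer sequences and help to recruit the spliceosome, and kinases of the SRPK and CLK families control their location and activity by phosphorylating the tail. The hnRNPs coat nascent transcripts, and many of them silence exons or act on RNA export, stability and translation, often in opposition to SR proteins. Many genes of both families limit their own protein through so-called poison exons, whose inclusion sends the transcript to nonsense-mediated decay. The table gave 1 value per gene, so it could not show whether a transcript contained such an exon.

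Values were RPM, reads scaled to a common library size, recovered from the deposited log2 values. Sequencing depth lay between 20360000 and 28590000 reads, of which listed genes held 65.1 to 71.1%. The targeted gene, ALDH1B1, lay at 34.1, 39.6 and 36.7 RPM in control replicates 4, 5 and 6 and at 19.99, 20.4 and 23.2 RPM in the knockdown replicates 4, 5 and 6. Its mean was thus 57.6% of control, a log2 change of -0.80 ± 0.09 (SE, n = 3 against 3; limma, Benjamini-Hochberg adjusted p = 2.46e-07). Mitochondrial messenger RNAs took 3.60 to 4.31% of all reads in the control samples and 6.34 to 6.43% in the knockdown samples. Of 12 colon epithelial markers 10 were listed, with a summed level of 5553 ± 129 RPM in control and 5996 ± 157 RPM in knockdown (SD, n = 3 each), most of it from KRT8, KRT18 and KRT19, which did not pass. Among the 7 tested markers 3 rose and 1 fell. CDH1 rose from 13.1 ± 2.92 to 51.0 ± 4.97 RPM (log2 change 1.98), VIL1 by 1.90 and EPCAM by 0.90, while CDX2 changed by -0.76. LGR5, KRT20 and GPA33 had too few reads to be tested, with means of 0.101, 0.101 and 0.121 RPM over all samples. Of 7 leukocyte markers 5 were listed, with sums of 2.64 ± 0.65 RPM in control and 1.93 ± 0.29 RPM in knockdown. CD68, the only tested marker among them, changed by -1.93 at a mean of 0.740 RPM (limma, adjusted p = 0.00069). Of 7 fibroblast markers 2 were listed, with sums of 5.05 ± 0.86 and 5.96 ± 0.85 RPM. Of 5 endothelial markers VWF alone was listed, at 0.53 ± 0.10 and 0.62 ± 0.10 RPM. The nuclear RNAs MALAT1 and NEAT1 did not pass the test, and all 13 mitochondrial messenger RNAs rose; the part of these shifts in the results was not tested beyond the scalings given with the counts.

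Knockdown samples held more RNA of several SR genes and less of several hnRNP genes, where 22.7% of all tested genes rose and 19.4% fell. Of 11 SR genes SRSF5, SRSF6 and SRSF7 rose, SRSF8 fell and 7 did not pass the test, with a median log2 change of 0.16. Among 21 hnRNP genes with enough reads, HNRNPDL rose, 8 fell and 12 did not pass, with a median of -0.13. The 8 that fell were HNRNPUL1, HNRNPU, HNRNPA0, HNRNPAB, HNRNPK, HNRNPC, HNRNPM and HNRNPH3. The called changes were small, between -0.38 and 0.36 on the log2 scale. In bulk RNA, fewer cells of a type and less RNA per cell cannot be told apart.

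A gene passed at an adjusted p below 0.05 over the 15343 genes tested, those averaging 0.731 RPM or more. Across all of them 42.0% passed, 22.7% upward and 19.4% downward, with a median log2 change of 0.00. Of all 84 members 50 were tested, 4 rose and 14 fell. The 34 untested members had means of 0.0732 to 0.600 RPM; they were 33 pseudogenes and HNRNPCL1. SR and hnRNP genes are abundant, and among the 1320 genes averaging 100 RPM or more 53.3% passed, 15.6% upward and 37.7% downward, with a median of -0.13. Of the 7 SR genes above that level 2 rose and none fell, while of the 18 hnRNP genes 1 rose and 8 fell. The hnRNP share that fell thus lay near the share among abundant genes. The share of SR genes that rose, 3 of 11, lay near the 22.7% of all tested genes.

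**Figure D1:**
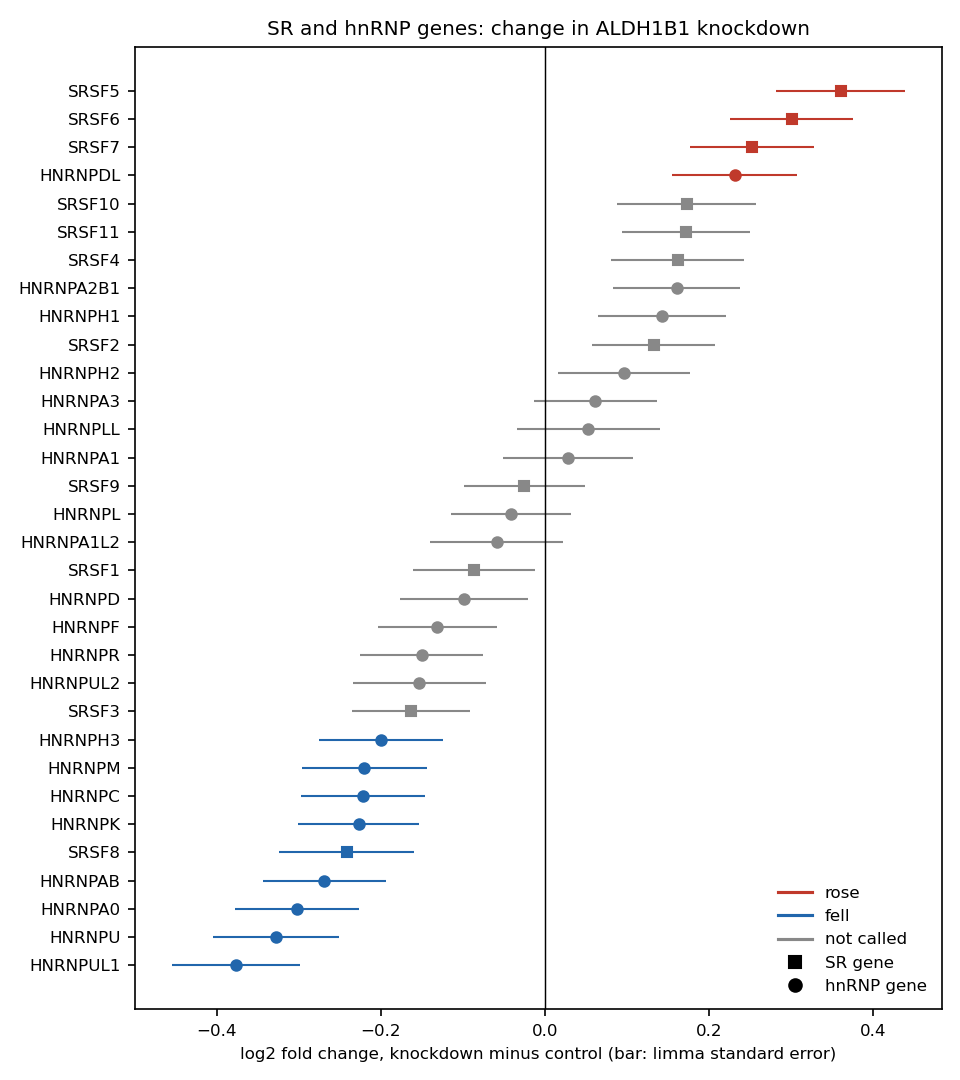
Log2 fold change of the 32 tested SR genes (squares) and hnRNP genes (circles), knockdown minus control, with limma's standard error as the bar. Red genes rose, blue genes fell and grey genes did not pass; estimates run from -0.38 for HNRNPUL1 to 0.36 for SRSF5.

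The split between higher and lower calls shifted with the scaling of the libraries. Of the 32 SR and hnRNP genes 4 rose and 9 fell on the deposited scale. With median-of-ratios scaling 10 rose and 13 fell, with totals that leave out the mitochondrial genes 12 rose and 9 fell, and with quantile normalization 11 rose and 7 fell. No scaling moved the median of all genes by more than 0.053. Single members moved further over the 16 alternatives, which gave 0.12 to 0.28 for HNRNPA2B1 and -0.26 to -0.14 for HNRNPK. Under these 3 scalings 7 SR genes rose and 1 or 2 fell, whereas 3 to 5 hnRNP genes rose and 6 to 11 fell. Leaving out control replicate 4 or knockdown replicate 5 left 5 fallen genes. HNRNPUL1, HNRNPU, HNRNPA0, HNRNPAB, SRSF5 and SRSF6 passed in the same direction under all 16 alternatives.

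SRSF5, an SR protein first found as a growth-induced gene of regenerating liver, lies at chr14:70193617-70238723 in the coordinates of the expression table, whose build is not named there. It was measured at 153, 149 and 131.5 RPM in control replicates 4, 5 and 6 and at 172.4, 185 and 199 RPM in knockdown replicates 4, 5 and 6. Every knockdown sample lay above every control sample, as for 26.5% of all tested genes, and SRSF5 had the largest rise of the SR and hnRNP genes, 0.36 ± 0.08 log2 units (SE; limma, adjusted p = 0.00069). The 68 tested genes within 5 Mb of it had a median of -0.18.

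SRSF6, which binds exonic enhancers, lies at chr20:42086568-42092246. Its control values were 207, 194 and 178.5 RPM and its knockdown values 230.5, 238 and 244 RPM. Again the groups did not overlap, and the log2 change was 0.30 ± 0.08 (SE; limma, adjusted p = 0.00225).

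SRSF7, an SR protein with a zinc knuckle that also links splicing to RNA export, lies at chr2:38970741-38978637. It stood at 88.7, 88.7 and 84.8 RPM in the control samples and 109, 97.6 and 106 RPM in the knockdown samples. The lowest knockdown sample was replicate 5, still above all controls, and the log2 change was 0.25 ± 0.08 (SE; limma, adjusted p = 0.00884). Its 34 neighbours within 5 Mb were themselves higher, with a median log2 change of 0.46, so a change of the gene and one of its region cannot be told apart. Without knockdown replicate 4 the adjusted p was 0.0522.

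SRSF8 (chr11:94800056-94804389) is a retrogene related to SRSF2, and it alone among the SR genes fell. Control replicates gave 49.8, 46.8 and 45.1 RPM and knockdown replicates 37.7, 41.5 and 40.7 RPM. The groups were apart by under 4 RPM, and the log2 change of -0.24 ± 0.08 (SE; limma, adjusted p = 0.0203) was lost in 4 of 16 alternatives. SRSF2 itself, an enhancer-binding SR protein needed for many constitutive exons, had a log2 change of 0.13 (95% interval -0.02 to 0.29).

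The other SR genes did not pass. SRSF10, which represses splicing when dephosphorylated, had a log2 change of 0.17 with an adjusted p of 0.105 in limma. SRSF11 and SRSF4 stood at 0.17 and 0.16, and their groups did not overlap. SRSF3, the smallest SR protein and an adaptor for RNA export, lay at -0.16 with all control samples above all knockdown samples. SRSF1, the best studied SR protein and a proto-oncogene, lay at -0.09 (95% interval -0.24 to 0.07), and SRSF9 at -0.02 (-0.18 to 0.13). The intervals of all uncalled SR and hnRNP genes stayed between -0.32 and 0.35.

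HNRNPUL1, a nuclear RNA-binding protein with roles in transcription and DNA repair, had the largest fall of the hnRNP genes. At chr19:41768401-41813504 it was measured at 351, 386 and 326 RPM in control replicates 4, 5 and 6 and at 261, 265 and 291.5 RPM in knockdown replicates 4, 5 and 6. All knockdown samples lay below all controls, as for 24.7% of all tested genes, and the log2 change was -0.38 ± 0.08 (SE; limma, adjusted p = 0.000421). Its 211 neighbours within 5 Mb had a median of 0.03. TGFB1, which overlaps it on the opposite strand at 50.7 RPM, changed by -0.25 (limma, adjusted p = 0.0218), and the strand setting of the counting is not given in the sources used here.

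HNRNPU, also called scaffold attachment factor A, binds nuclear RNA and chromatin, and lies at chr1:245014468-245027845. Its control samples stood at 475.5, 510.2 and 466 RPM and its knockdown samples at 365, 373 and 420.4 RPM. Knockdown replicate 6 was the highest of its group and still below the controls, and the log2 change was -0.33 ± 0.08 (SE; limma, adjusted p = 0.00137). HNRNPU-AS1 overlaps HNRNPU on the same strand in the table and moved the other way, by 0.42 at a mean of 20.8 RPM over all 6 samples (limma, adjusted p = 0.00392).

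HNRNPA0 binds AU-rich elements of messenger RNAs, and its gene lies at chr5:137087075-137090040. Levels were 209, 234 and 207 RPM in control and 175, 167 and 184.5 RPM in knockdown, a log2 change of -0.30 ± 0.08 (SE; limma, adjusted p = 0.00234). HNRNPAB, a relative of HNRNPD at chr5:177631508-177638165, had control levels of 261, 293 and 274 RPM and knockdown levels of 232, 216 and 239 RPM. Its log2 change was -0.27 ± 0.07 (SE; limma, adjusted p = 0.00538). Neither gene had overlapping groups, and their 99 and 80 neighbours within 5 Mb had medians of -0.06 and -0.08.

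The other 4 hnRNP genes that fell had log2 changes of -0.23 to -0.20. HNRNPK, which binds C-rich RNA and DNA through KH domains, averaged 405 ± 17.3 RPM in control and 346 ± 15.0 RPM in knockdown (SD, n = 3 each). HNRNPC, which binds uridine tracts and keeps cryptic exons out of transcripts, averaged 362 ± 15.0 and 310.4 ± 22.96 RPM, and HNRNPM, a regulator of exons that change in epithelial-mesenchymal transition, averaged 215 ± 11.0 and 185 ± 13.98 RPM. HNRNPH3, of the G-run-binding H/F subgroup, averaged 127 ± 5.70 and 111 ± 7.30 RPM. All knockdown samples lay below all controls in each of the 4, as for 24.7% of all tested genes. For HNRNPH3 the lowest control was 121 RPM and the highest knockdown 119 RPM. Limma's adjusted p-values ran from 0.0152 for HNRNPK to 0.0369 for HNRNPH3, and each call was lost in at least 5 of 16 alternatives.

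**Figure D2:**
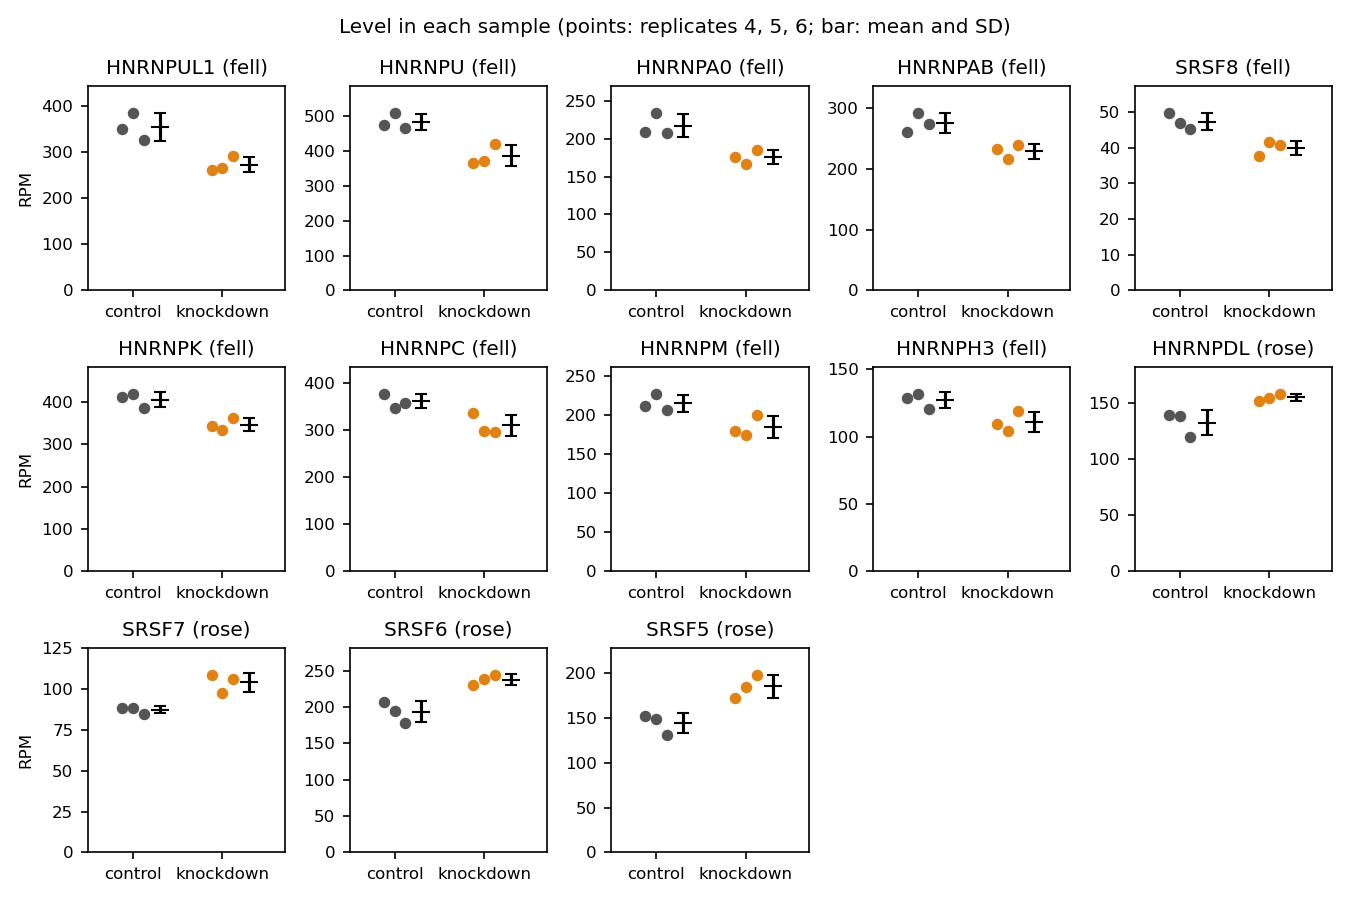
RPM in each sample of the 13 SR and hnRNP genes past the threshold, with control replicates 4, 5 and 6 in grey, knockdown replicates in orange, and a bar for mean and SD (each axis starts at 0). The genes were chosen for passing, so groups that do not overlap in all 13 panels add no support. Among all tested genes the groups do not overlap for 51.2%. The gaps are small beside the levels, as for HNRNPUL1 with controls down to 326 RPM and knockdown up to 291.5 RPM.

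HNRNPDL was the hnRNP gene that rose. It stood at 139.5, 138 and 119.5 RPM in control replicates 4, 5 and 6 and at 152, 155 and 158 RPM in knockdown replicates 4, 5 and 6, a log2 change of 0.23 ± 0.08 (SE; limma, adjusted p = 0.0173) that was lost in 4 of 16 alternatives, among them those without control replicate 6 and without knockdown replicate 5. Its close paralog HNRNPD, whose protein AUF1 promotes decay of AU-rich messenger RNAs, is its neighbour on chromosome 4 and changed by -0.10 (adjusted p = 0.326). The 34 genes within 5 Mb had a median of -0.16. As a ratio that a single scaling factor per library cannot alter, HNRNPDL stood at 61.3, 57.5 and 59.0% of HNRNPD in control and at 76.2, 76.1 and 71.2% in knockdown. The groups were apart. An exact two-sided permutation test gave p = 0.1, the smallest possible with 3 samples against 3. With that limit the test cannot decide whether the ratio differed between the groups. HNRNPDL had already been called higher from the same values, so the gap in the ratio adds no separate support.

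Among the 12 uncalled hnRNP genes were HNRNPA2B1, HNRNPA1 and HNRNPH1. HNRNPA2B1, which binds exon silencers and sorts RNA into vesicles, stood at 763, 777 and 715 RPM in control and 812, 818 and 891 RPM in knockdown. All knockdown samples exceeded all controls, but the adjusted p was 0.0987 in limma at a log2 change of 0.16. CBX3, which overlaps it on the opposite strand at 286 RPM, rose by 0.28. HNRNPA1, the classic antagonist of SRSF1 in splice site choice, stood at 429, 422 and 378 RPM in control and 387, 417 and 450.4 RPM in knockdown. These groups overlapped, and the change was 0.03 (95% interval -0.13 to 0.19). HNRNPH1 and HNRNPH2, which bind runs of G, lay at 0.14 and 0.10, HNRNPA3 and HNRNPLL at 0.06 and 0.05, HNRNPL and HNRNPA1L2 at -0.04 and -0.06, and HNRNPR, HNRNPUL2 and HNRNPF at -0.15, -0.15 and -0.13. HNRNPUL2 shares its strand with the read-through gene HNRNPUL2-BSCL2, at 85.1 RPM.

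Summed over each class, the SR genes gave 1772, 1748 and 1594 RPM in control replicates 4, 5 and 6 and 1785, 1787 and 1901 RPM in knockdown replicates 4, 5 and 6. The hnRNP genes gave 5735, 5898 and 5333 RPM and 5243, 5194 and 5594 RPM. The SR sum of every knockdown sample was above every control, by little, while the hnRNP sums overlapped. Their ratio, which a single scaling factor per library cannot change, was higher in all knockdown samples: SR genes amounted to 30.9, 29.6 and 29.9% of the hnRNP sum in control and 34.0, 34.4 and 34.0% in knockdown. It was computed with the changes of single genes in view and was not tested.

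Levels per kilobase used the GENCODE exons of a gene merged over its transcripts, 1.87 kb for HNRNPAB and 5.945 kb for HNRNPA2B1. The merged length can exceed that of any single transcript, so the order of genes depends on the annotation. On this measure HNRNPAB was highest in control cells at 147.5 ± 8.54 RPM per kb (SD, n = 3). HNRNPK at 133 ± 5.68, HNRNPH1 at 131 ± 10.4 and HNRNPA2B1 at 126 ± 5.45 followed. HNRNPK and HNRNPA2B1 lay within 1 SD of HNRNPH1. In knockdown cells HNRNPH1 at 145 ± 5.95 and HNRNPA2B1 at 141 ± 7.37 came before HNRNPAB at 122 ± 6.398 and HNRNPK at 114 ± 4.92. The most abundant SR genes per kilobase in control were SRSF1 at 88.3 ± 3.80 and SRSF2 at 85.6 ± 4.26, within each other's spread. HNRNPLL, a regulator of CD45 splicing in lymphocytes, and SRSF8 were the lowest tested genes, at 8.94 ± 0.49 and 11.7 ± 0.59 RPM per kb.

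The pseudogenes are mostly processed copies of hnRNP messenger RNAs put back into the genome, and short reads can map to a copy and its parent alike. Of the 51 copies 24 derive from HNRNPA1.

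HNRNPCP2 matched HNRNPC at 98.9% of 878 aligned bases. Bases 356 to 415 of the HNRNPC coding sequence, from the genome build GRCh38, are given below because the copy and the parent were both called. The stretch was chosen as one with the most differences, and capitals mark the bases of the copy that differ.

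HNRNPC: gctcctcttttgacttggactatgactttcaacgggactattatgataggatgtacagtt
HNRNPCP2: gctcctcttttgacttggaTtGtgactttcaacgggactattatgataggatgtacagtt

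Of 18 tested pseudogenes 5 fell, none rose and 13 did not pass. Among all tested genes 19.4% fell, 22.7% rose and 42.0% passed in either direction. HNRNPCP2 stood at 60.03, 58.9 and 56.99 RPM in control and 53.2, 46.6 and 44.7 RPM in knockdown, a log2 change of -0.29 (limma, adjusted p = 0.00693), beside -0.22 for HNRNPC. HNRNPA3P6 stood at 92.5, 97.9 and 85.6 RPM and then 74.7, 76.6 and 82.9 RPM, a change of -0.24 (adjusted p = 0.0178), whereas its parent HNRNPA3 had 0.06. The groups of both copies did not overlap. HNRNPKP4, HNRNPKP1 and HNRNPA3P5 fell too, with log2 changes of -0.23, -0.44 and -0.38. The call of HNRNPCP2 held in all 15 alternatives run for it, whereas those of HNRNPA3P6, HNRNPKP4 and HNRNPA3P5 were lost in 6, 5 and 7 of 15 and that of HNRNPKP1 in 8 of 14. In place of 5 fallen pseudogenes there was 1 without control replicate 5 or knockdown replicate 5, 2 without knockdown replicate 4, and 3 without control replicate 4 or knockdown replicate 6.

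HNRNPA1P48 and HNRNPA1P7 were listed at means of 229 and 215 RPM, beside 414 RPM for HNRNPA1, and had log2 changes of -0.07 and -0.10 without passing, as had HNRNPLP2 and HNRNPA1P10 with -0.14 and -0.06. The 7 copies of at least 20 RPM shared 15.9 to 76.6% of their 50-base stretches with a parent transcript. The other 44 shared 0 to 40.6%, with a median of 5.83%, so the ranges overlapped. Over the 51 copies, level and shared stretches had a Spearman rho of 0.61, a description across genes that share libraries and parents. With each gene summed with its copies, 4 SR and hnRNP genes rose and 9 fell, and HNRNPA1 stood at -0.03. How reads matching several places were assigned is not given in the sources used here, so levels of these copies and their parents are uncertain.

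**Figure D3:**
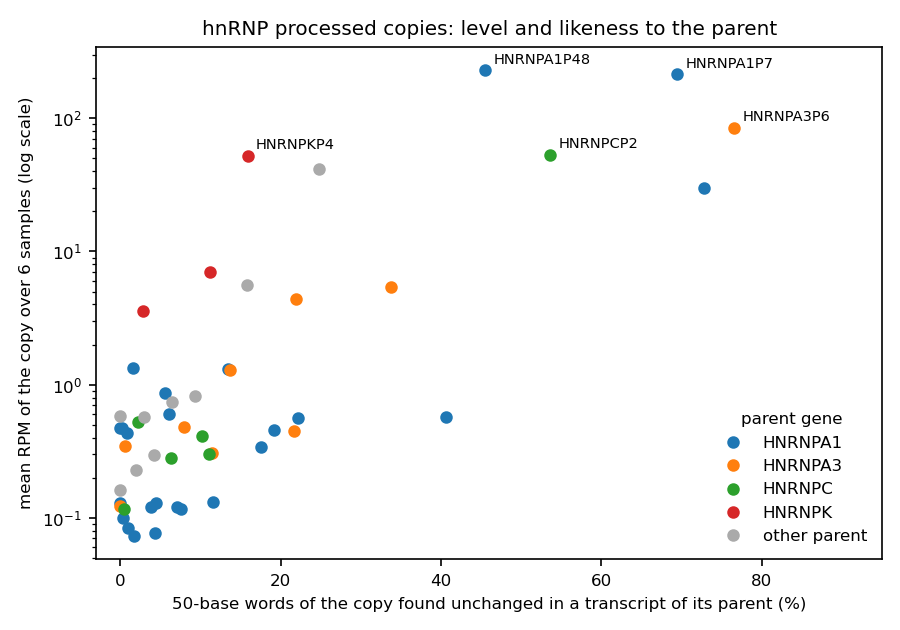
Mean RPM over the 6 samples (log axis) of each of the 51 hnRNP pseudogenes against the percentage of its 50-base stretches found unchanged in a parent transcript, coloured by parent gene. The copies of at least 20 RPM share 15.9 to 76.6% of such stretches. The others share 0 to 40.6%, and most of them sit at the lower left.

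Proximal promoters were compared between the SR and hnRNP genes as a description of their sequence. RefSeq start sites on GRCh38.p14 were listed for 31 of the genes, not for HNRNPA1 or SRSF2. The 250 bases before the start are shown for SRSF5, SRSF6, HNRNPU and HNRNPA0, 4 of the 6 genes called under every alternative. Capitals mark matches, on either strand, to CCAAT, to the GC box GGGCGG or to the ETS site CCGGAAG.

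SRSF5 chr14:69766892-69767141 (plus strand): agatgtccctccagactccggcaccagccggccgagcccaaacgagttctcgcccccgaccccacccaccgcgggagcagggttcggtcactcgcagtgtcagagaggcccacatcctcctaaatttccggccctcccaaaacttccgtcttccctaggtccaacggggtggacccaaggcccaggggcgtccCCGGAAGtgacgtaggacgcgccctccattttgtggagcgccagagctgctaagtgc
SRSF6 chr20:43457646-43457895 (plus strand): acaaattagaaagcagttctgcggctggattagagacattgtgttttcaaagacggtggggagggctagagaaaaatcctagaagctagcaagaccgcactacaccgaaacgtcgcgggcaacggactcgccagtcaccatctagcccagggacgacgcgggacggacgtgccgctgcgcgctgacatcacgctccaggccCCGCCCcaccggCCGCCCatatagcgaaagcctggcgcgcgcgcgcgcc
HNRNPU chr1:244864544-244864793 (minus strand): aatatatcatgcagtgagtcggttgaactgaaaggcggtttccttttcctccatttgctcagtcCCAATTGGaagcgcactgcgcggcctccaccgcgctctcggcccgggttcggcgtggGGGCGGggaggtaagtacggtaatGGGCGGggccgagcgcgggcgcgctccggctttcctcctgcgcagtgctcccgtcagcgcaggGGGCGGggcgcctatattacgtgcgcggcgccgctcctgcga
HNRNPA0 chr5:137754364-137754613 (minus strand): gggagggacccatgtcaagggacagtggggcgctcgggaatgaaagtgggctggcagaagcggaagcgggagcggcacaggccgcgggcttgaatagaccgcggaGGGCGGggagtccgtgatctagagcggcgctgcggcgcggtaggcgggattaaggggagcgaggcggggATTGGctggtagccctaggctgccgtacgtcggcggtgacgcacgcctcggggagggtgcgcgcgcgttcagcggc

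CCAAT occurred in both hnRNP stretches, overlapping itself on the opposite strand in HNRNPU, and in neither SR stretch. Over all genes with an entry it was present at 17 of 21 hnRNP and 2 of 10 SR genes, beside 37.0% of all 27305 genes and 44.6% of 990 genes with at least 100 RPM. By call, 8 of 9 genes that fell, 1 of 4 that rose and 9 of 17 uncalled genes held it. Every fallen gene but SRSF8 was an hnRNP gene, so call and class cannot be told apart here. The GC box was present at 17 of 21 hnRNP and 3 of 10 SR genes, beside 46.2% of all genes and 82.8% of those with at least 100 RPM. The E-box CACGTG was found at 6 of 21 hnRNP genes and at none of 10 SR genes, beside 7.73% of all genes and 13.8% of those with at least 100 RPM. The ETS site stood at 3 of 21 hnRNP and 2 of 10 SR genes, beside 10.2% of all genes and 21.5% of those with at least 100 RPM. TATAAA stood at 3 of 21 and 3 of 10, beside 13.0% and 9.90%. The NRF1 motif and the YY1 motif AAGATGGCG were present at none of the 31 genes, beside 1.28% and 0.784% of all genes. A match of letters is no measure of factor binding.

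Changes were also found among the proteins that act on SR proteins. Of 15 tested kinases, phosphatases and import factors of SR proteins 6 rose and 2 fell, with a median log2 change of 0.15. Across all tested genes 22.7% rose and 19.4% fell, the background for this list and those that follow. CLK1, a nuclear kinase that releases SR proteins from speckles, stood at 35.8, 37.7 and 34.5 RPM in control and 55.1, 51.8 and 52.0 RPM in knockdown. The groups lay far apart, with a log2 change of 0.56 ± 0.08 (SE; limma, adjusted p = 5.65e-06). Its relatives CLK4 and CLK2 rose by 0.55 and 0.51, and the muscle kinase SRPK3 by 1.40 from a control mean of 1.09 RPM.

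SR-related proteins, which carry similar tails without being classic SR proteins, gave 11 risen and 3 fallen of 26 tested genes. LUC7L3, which is tied to the U1 particle at splice donors, stood at 155, 137.5 and 122 RPM in control and 202, 214.5 and 225 RPM in knockdown, a log2 change of 0.63 (limma, adjusted p = 1.34e-06). Every knockdown sample was above every control. TRA2A, a relative of SR proteins that binds GAA-rich enhancers, rose by 0.37 and U2AF1, the reader of the AG at the splice acceptor, by 0.36. SRRM3, a neuronal SR-related protein, rose by 1.18.

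Of 22 hnRNP proteins outside the naming rule 5 rose and 6 fell, with a median of -0.01. PTBP3, a polypyrimidine tract binding protein, fell by 0.41, SYNCRIP, known as hnRNP Q, by 0.32, YBX1, a cold shock domain protein, by 0.31 and ILF2 by 0.29 on the log2 scale. Among tissue-linked regulators 7 of 25 rose and 8 fell. MBNL1, which drives the adult splicing pattern in muscle, averaged 166 ± 7.74 RPM in control and 101 ± 3.63 RPM in knockdown (SD, n = 3 each), a log2 change of -0.71 (limma, adjusted p = 3.97e-08). TIA1, which promotes exons with weak donors, rose by 0.65, RBM5 by 0.62 and MBNL3 by 0.94.

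Core spliceosome proteins gave 3 risen and 16 fallen of 44, with 38 of 44 estimates below 0 and a median of -0.16. Estimates lay below 0 for 7672 of all 15343 tested genes. Among genes averaging 100 RPM or more they did so for 917 of 1320, with a median of -0.13. The median level of the spliceosome list was 51.9 RPM. SNRPB, a Sm ring protein, averaged 262 ± 6.84 RPM in control and 199 ± 4.02 RPM in knockdown (SD, n = 3 each), a log2 change of -0.40 (limma, adjusted p = 7.90e-05). SF3A1 of the U2 particle fell by 0.43 on that scale and PRPF4 by 0.45, whereas SNRNP200, a helicase that unwinds the U4 and U6 RNAs, rose by 0.51. In the exon junction complex and nonsense-mediated decay list, 1 of 15 rose, UPF3A by 0.64, and 5 fell, among them SMG5 by 0.48, MAGOHB by 0.43 and SMG1 by 0.26. Over the 6 lists 33 of 147 tested genes rose and 40 fell, beside 22.7% and 19.4% of all tested genes, with a median of -0.08. The share that rose thus lay near that of all genes. Of the 58 list genes averaging 100 RPM or more 11 rose and 23 fell, beside 15.6% and 37.7% of all genes at that level. Of all 147 list genes, 40 fell with every sample in the fit, 23 without knockdown replicate 5 and 26 without control replicate 5.

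**Figure D4:**
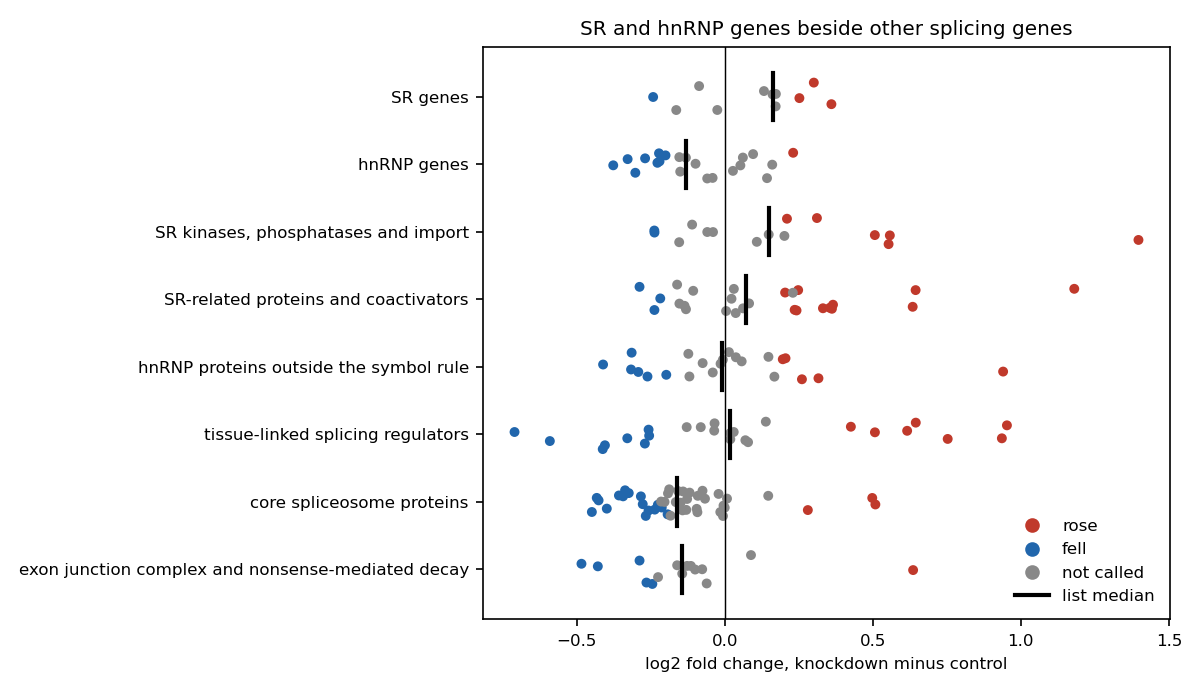
Log2 fold change, knockdown minus control, of each tested SR and hnRNP gene beside the 6 lists of other splicing genes; each point is a gene, coloured by its call, and the black bar is the list median. Medians are 0.16 for SR genes, 0.15 for their kinases and import factors, -0.13 for hnRNP genes and -0.16 for core spliceosome proteins.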

How the data were processed

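RNA-seq of total RNA from SW480 cells, 3 knockdown and 3 control samples, was used as deposited. Per the submitters' processing notes, Bowtie and Partek were used with build hg38; how reads were counted and filtered, and with which strand setting, is not stated there. The authors deposited log2 values per gene, which equal log2(RPM + 0.0001): reads recovered from low values came out within 0.02 of whole numbers for 75.1 to 76.2% of values under 20 reads. The table has 24549 lines and 22258 symbols; repeated lines of a symbol held identical values and were used once. Table coordinates did not match hg38 and are given as listed.

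The deposited log2 values were fitted with limma 3.58.1 (lmFit, eBayes with a variance trend, R 4.3.3), knockdown against control, for genes averaging 0.731 RPM or more, a value set as 10 reads relative to the smallest listed-gene total, and thus above 10 reads in every library. P-values were adjusted by Benjamini-Hochberg over 15343 genes. A count of 3 reads, 0.105 to 0.147 RPM, was the detection floor, and SR and hnRNP genes tested held 793 to 23309 reads per sample; precision from reads covers counting error only. The procedure was tested on simulated data. Those data held fewer changed genes than passed here, and larger changes than any called SR or hnRNP gene. They thus do not cover effects of the reported size.

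Members, gene lists and rules were chosen with earlier results of these data known. The genes named are ALDH1B1, members that passed the filter and, per splicing list, up to 4 genes with the smallest adjusted p; list genes above 100 RPM are given as a count. Overlapping genes (HNRNPU-AS1, TGFB1, CBX3), the single cell type markers and the promoter and copy comparisons were chosen after the values were seen. So were the 100 RPM background and the sums of genes with their copies. Alternatives covered other scalings, filters, variance models, a replicate block and leaving out each sample. Promoter sequences are from RefSeq (GRCh38.p14); transcripts and exon lengths are from GENCODE 29 on GRCh38.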

Additional observations from a re-analysis of the deposited data

How the results depend on the processing

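On the deposited scale 4 members rose and 14 fell (SR and hnRNP genes 4 and 9; other splicing lists 33 and 40). Members that rose numbered 10 with median-of-ratios scaling, 12 with nuclear gene totals and 11 with quantile normalization, and SR and hnRNP genes that rose numbered 10, 12 and 11. Without a variance trend 7 members, 4 SR and hnRNP genes and 26 other splicing genes fell. With a replicate block 5 members and 4 SR and hnRNP genes fell, 3 rose, and 5446 of all genes passed in place of 6451. Deviations of same-numbered samples from their group means had correlations of -0.06, -0.07 and -0.14. The values thus held no positive correlation by replicate number, which cannot show whether the samples were paired. Leaving out 1 sample at a time gave 3 to 5 risen and 6 to 16 fallen members, 3 to 5 risen and 5 to 12 fallen SR and hnRNP genes, 27 to 31 risen and 23 to 50 fallen other splicing genes, and 4912 to 6778 genes in all. Fallen members numbered 8 without control replicate 4 or knockdown replicate 4, 7 without control replicate 5 and 6 without knockdown replicate 5. The cause was not tested, beyond the smaller samples of the last fits.

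Estimates that changed sign were all uncalled. Those listed are SR and hnRNP genes and pseudogenes averaging at least 20 RPM. Some tested pseudogenes of lower level changed sign too, such as HNRNPUP1 with -0.13 to 0.11 over the alternatives. SRSF9 was 0.028 with nuclear totals and 0.041 with quantile normalization, and HNRNPL 0.012 with nuclear totals. Summed with their copies, HNRNPA1 was -0.032 and HNRNPA3 -0.022. With 1 sample left out HNRNPA1 ranged from -0.028 to 0.083, below 0 without control replicate 6 or knockdown replicate 6. HNRNPLL ranged from -0.022 to 0.12 and HNRNPA1P10 from -0.15 to 0.018, both changing sign without knockdown replicate 4. Of the other values, 549 kept direction and side of the threshold, 29 passed only under the alternative and 59 only in the reported fit. These counts cover the tested SR and hnRNP genes and the pseudogenes that were called or averaged at least 20 RPM. ALDH1B1 stayed between -0.86 and -0.74. Reads limit the untested pseudogenes, at or under 0.600 RPM.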
